A study of Mus musculus with 18 samples.

Results

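The genes described here are 9 amino acid transporters of the plasma membrane and the lysosome: Slc7a2, Slc7a5, Slc7a7, Slc7a8, Slc7a11, Slc3a2, Slc1a5, Slc38a2 and Slc36a1. The list was drawn up with earlier results of these data known. Its probe sets were chosen by gene symbol, as every probe set of the array annotated with 1 of these symbols alone. That gave 17 of 45101 probe sets, for 9 of the 18193 genes measured by probe sets of a single symbol. Amino acid transporters of the Slc7 family are light chains or single-chain carriers. Most light chains reach the cell surface only as a disulfide-linked pair with the heavy chain encoded by Slc3a2. In macrophages, uptake of arginine feeds nitric oxide synthase and arginase, uptake of cystine feeds glutathione synthesis, and transporters of the lysosomal membrane release amino acids that are sensed by the kinase complex mTORC1.

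Total RNA from mouse immune cells was hybridised to Affymetrix expression arrays, with 6 arrays for each of 3 times: controls at time zero (0 h), then 1 h and 4 h after treatment with a cell wall extract. The design text states that the treated mice were knockouts, without saying whether the controls were too, and no sample label names a genotype, strain, age, animal or cell type. Array codes in the titles run in 3 blocks of numbers (12 to 22, then 32 to 37, then 44 to 54), and in each block every time has 2 arrays. What a range stands for is not given in the labels. Nothing in the labels says that the arrays of a group came from separate animals or cultures, so p-values measure the spread between these arrays, which may be technical.

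The values are signals on a linear scale, with a trimmed mean of 500 on every array, and were analysed as log2(signal + 16). A probe set was kept if it exceeded its own array's median on at least 4 of 18 arrays, which left 25804 probe sets for 11733 genes. Where a gene had several kept probe sets, the one of highest mean stood for it, and differences were tested with limma, with Benjamini-Hochberg adjustment over all kept probe sets and a threshold of 0.05. Array medians lay between 89.8 and 105.4 at 0 h, between 86.2 and 108.1 at 1 h and between 74.7 and 87.5 at 4 h. All 13 macrophage markers were kept, and their mean log2 signal lay between 13.0 and 13.37 at 0 h, between 13.0 and 13.49 at 1 h and between 13.11 and 13.53 at 4 h. Cd3d, Cd3e, Cd3g and Cd4 of the T cell markers and Ms4a1 and Pax5 of the B cell markers were not kept. Those kept were Cd8a and Zap70 for T cells, with mean signals of 68.9 and 222 at 0 h. For B cells they were Cd79b, Cd22 and Ighm, at 199, 122 and 555. Of the neutrophil markers with a probe set 7 of 10 were kept. The kept markers of the remaining blood cells were few, with 2 of 10 for T cells, 3 of 7 for B cells, 2 of 7 for NK cells, 3 of 9 for dendritic cells and 2 of 5 for erythroid cells. At 4 h against 0 h the macrophage markers Marco, Msr1 and Cd14 rose and Mertk and Ctss fell. Of other cells' markers Csf3r (neutrophils, log2 1.40) and Itgax (dendritic cells, 1.66) rose and Cd79b (B cells, -1.44) fell. Each was the only kept marker of its list that was called, 1 of 7 for neutrophils, 1 of 3 for dendritic cells and 1 of 3 for B cells. Of the stromal markers 0 of 7 were called. After centring the arrays on their medians, Ctss (limma adjusted p = 0.701) and Cd79b (0.0717) did not pass. The part of these markers in the changes below was not tested. The mean log2 signal of 7 kept stromal markers was 7.38 ± 0.19 in codes 12 to 22, 9.0 ± 0.30 in codes 32 to 37 and 10.51 ± 0.20 in codes 44 to 54 (SD, n = 6 each), and that of 7 kept neutrophil markers in the same ranges was 8.91 ± 0.22, 8.41 ± 0.32 and 7.32 ± 0.32. For the 3 kept B cell markers it was 8.34 ± 0.48, 7.08 ± 0.39 and 6.82 ± 0.46. The ratio of 3′ to 5′ Gapdh signal, a measure of RNA integrity, was 1.277 on array 36 (1 h) and 1.51 on array 37 (4 h), against 0.681 to 0.832 on the other 16 arrays. In bulk RNA, fewer cells of a type and less RNA per cell cannot be told apart.

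At 4 h, 5 of the 9 transporters were higher than at 0 h, 1 was lower and 3 did not pass the test. The cystine carrier Slc7a11 was 17.7-fold higher, the arginine carrier Slc7a2 6.67-fold, the arginine and leucine exchanger Slc7a7 3.21-fold, the shared heavy chain Slc3a2 2.37-fold and the neutral amino acid exchanger Slc7a8 1.82-fold. The lysosomal carrier Slc36a1 was lower, at 0.476 of its 0 h level. Of all 11733 genes 35.4% were called in this comparison, 11.5% as higher and 23.9% as lower. With arrays centred on their medians 29.2% of genes were called and the split turned to 18.4% higher and 10.8% lower. With quantile normalization 30.3% were called, 12.8% higher and 17.4% lower. For 5 transporters all 4 h arrays were above all 0 h arrays, as for 6.78% of all genes, and for 0 they were all below, as for 12.6%. The median log2 change was 0.87 over the 9 transporters and -0.19 over all genes. Because the transporters were chosen with earlier results of these data known, their counts and median beside those of all genes are a description and not a test. The median over all genes was -0.07 after quantile normalization and 0.06 after centring. Under either of those scalings 6 transporters were higher and 1 was lower. Without arrays 36 and 37, 5 were higher and 1 was lower.

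**Figure D1:**
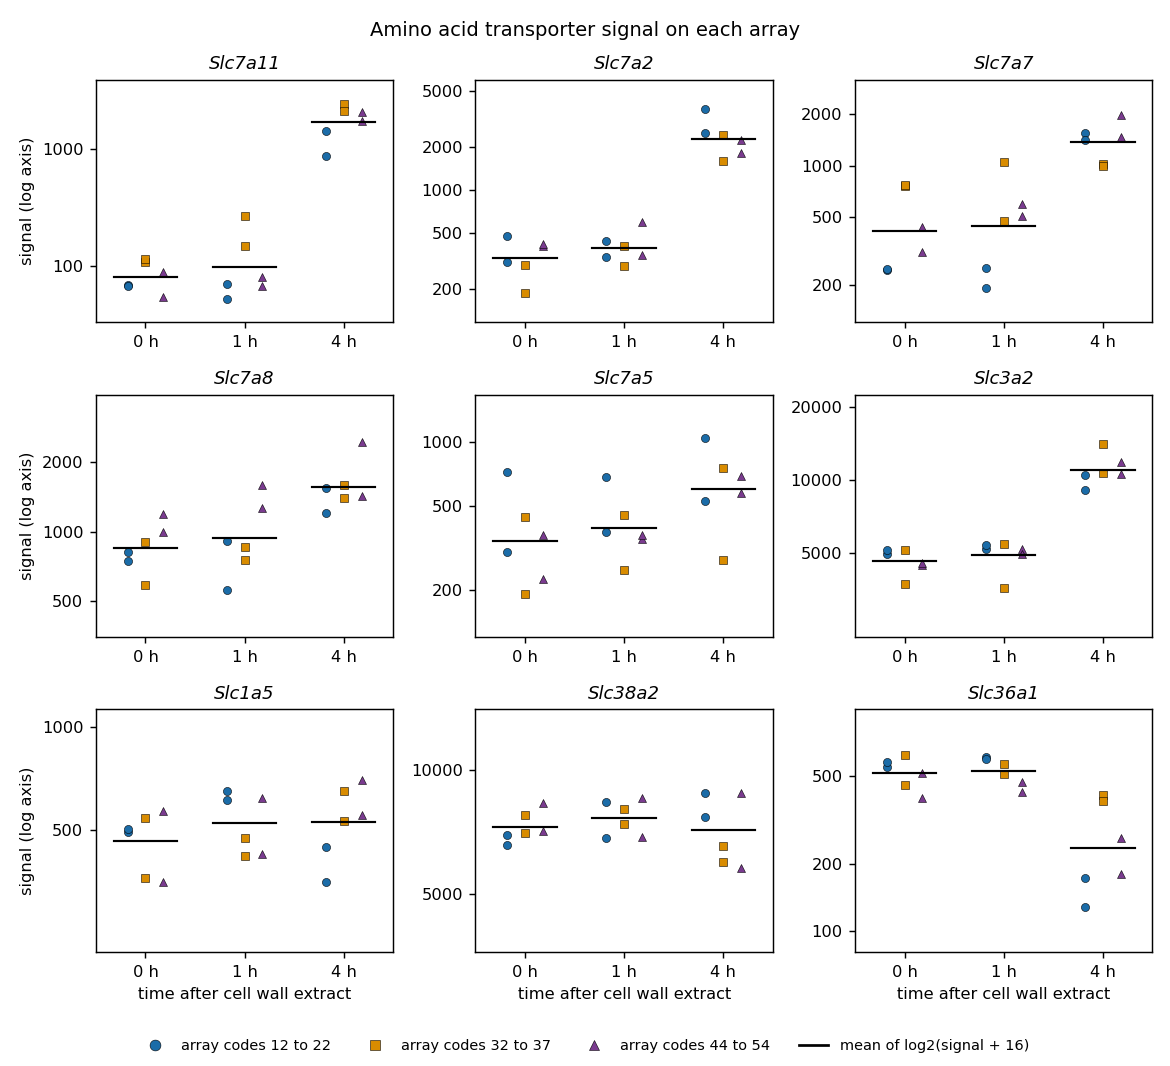
Signal of each transporter's representative probe set on every array (log axis) at 0 h, 1 h and 4 h after the cell wall extract, with 6 arrays per time, symbols for the ranges of array codes and bars at the mean of log2(signal + 16). For Slc7a11, Slc7a2, Slc7a7, Slc7a8 and Slc3a2 every 4 h array lies above every 0 h array, and the vertical axes differ between genes.

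All 9 representative probe sets passed the filter on dim values. For 8 of them the signal exceeded the array's median on 18 of 18 arrays. The Slc7a11 probe set did so on 6 of 6 arrays at 4 h, but on 2 at either earlier time. Of the 8 further probe sets of these genes, 1426008_a_at and 1450703_at of Slc7a2 exceeded the median on 0 arrays before 4 h. These and the second Slc7a11 probe set (1443536_at, on 1 array at either earlier time) entered the fit only because of their 4 h signal, so their signals are given with no test.

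Slc7a11 encodes xCT, the light chain of the exchanger that imports cystine and exports glutamate. At 0 h its probe set 1420413_at had signals of 67.9 and 66.4 in codes 12 to 22, 107 and 113 in codes 32 to 37, and 54.2 and 87.6 in codes 44 to 54. At 1 h the signals were 69.8 and 52.1, 147 and 267, and 66.6 and 80.5 in the same order of ranges. At 4 h they were 1425 and 864, 2462 and 2111, and 2097 and 1743. Every 4 h array was above every 0 h and 1 h array, and within each time the highest signals were on arrays of codes 32 to 37. The log2 change of 4 h against 0 h was 4.15 ± 0.32 (SE), 39th from the top of 11733 genes, with a limma adjusted p of 6.4e-08. Against 1 h the change was 3.91 (limma adjusted p = 2.08e-07), 9th among all genes.

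The second Slc7a11 probe set was at 1074 to 3296 at 4 h, against 6.03 to 89.8 at 0 h. It was chosen by its 4 h signal, as said above, and is given as a description.

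The promoter of Slc7a11 is shown because it holds the core of the amino acid response element, the sequence through which the transcription factor ATF4 is known to act on this gene. Windows from 250 bases before to 50 bases after each annotated start were taken from RefSeq (GRCm38.p6), which held 10 windows for 6 of the 9 transporters. They were searched on both strands for TGATGNAA, the amino acid response core, and for TGACNNNGC, the antioxidant response core bound by NRF2. They were also searched for CACGTGAC, an E-box with the flanking AC of the lysosomal gene element bound by TFEB. The motifs were chosen after the sequences were seen, and a match is a description and not evidence of binding. At least 1 TGATGNAA is present in 3.97% of 32851 windows of the same length and at least 2 in 0.07%. The Slc7a11 window has 2, TGATGCAA with its first base at -66 from the start and an inverted copy, TTGCATCA, at -47. On chr3:50443633-50443699 (minus strand) the stretch with both sites in capitals reads as follows.
Slc7a11: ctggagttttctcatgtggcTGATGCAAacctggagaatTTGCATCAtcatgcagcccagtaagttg
No TGACNNNGC and no CACGTGAC was found in this window.

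Slc3a2 encodes the heavy chain that carries Slc7a5, Slc7a7, Slc7a8 and Slc7a11 to the cell surface. Its signals were 3735 to 5159 at 0 h (median 4745), 3598 to 5461 at 1 h (median 5198) and 9058 to 13994 at 4 h (median 10625). The 4 h arrays did not overlap those of either earlier time. The log2 change of 4 h against 0 h was 1.24 ± 0.13 (limma adjusted p = 2.59e-06), the smallest standard error among the transporters that rose. It was 0.94 within codes 12 to 22, 1.47 within codes 32 to 37 and 1.31 within codes 44 to 54. Fitted within codes 32 to 37 alone, with 2 arrays per time, it did not pass (limma adjusted p = 0.0644). That fit called 1184 probe sets, against 8532 in the main fit. The RefSeq window of Slc3a2 held none of the 3 motifs.

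Slc7a2 encodes CAT2, a carrier of arginine, lysine and ornithine. Its probe set 1436555_at had signals of 471 and 309.8 in codes 12 to 22 at 0 h, 186 and 294 in codes 32 to 37, and 401 and 418 in codes 44 to 54. At 1 h the range over the 6 arrays was 292 to 597, with a median of 376. At 4 h the signals were 3749.7 and 2529.7, 2426 and 1613, and 2237 and 1825 in the order of ranges. The lowest 4 h signal was above the highest of the earlier times. The log2 change of 4 h against 0 h was 2.74 ± 0.23 (limma adjusted p = 1.62e-07), 122nd of 11733 genes.

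Of the 3 other Slc7a2 probe sets, 1422648_at was also higher at 4 h, by 1.89 on the log2 scale (limma adjusted p = 0.00154). For 1422648_at the 4 h signals spread from 134 to 1285, against 73.5 to 134 at 0 h, and the groups overlapped. The arrays at 134 and 135 at 4 h were 49 and 37, and the highest was array 16. For 1426008_a_at, given with no test, the 4 h signals ran from 181 to 898, against 16.1 to 96.0 at 0 h, with no overlap.

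**Figure D2:**
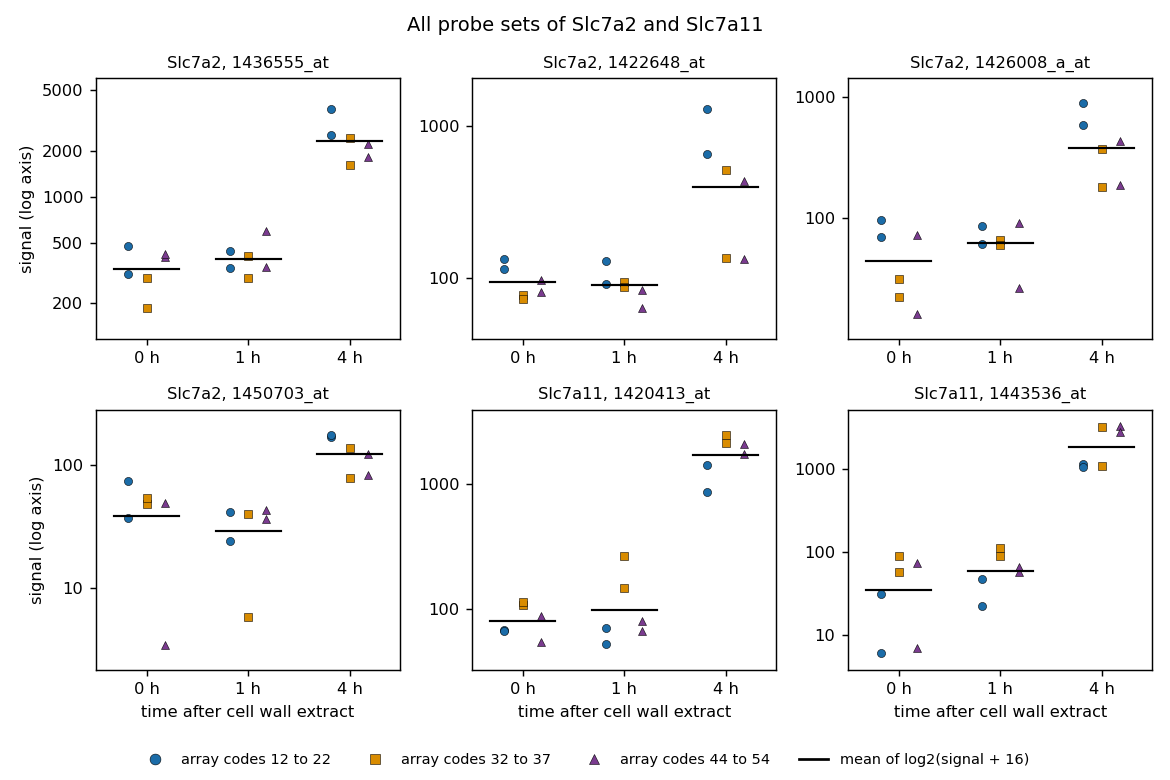
Signal of all 4 probe sets of Slc7a2 and both probe sets of Slc7a11 on every array (log axis) at 0 h, 1 h and 4 h, with symbols for the ranges of array codes and bars at the mean of log2(signal + 16). Every 4 h array lies above every 0 h array except for Slc7a2 1422648_at, whose 4 h signals run from 134 to 1285; 3 of these probe sets entered only by their 4 h signal.

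Slc7a7 encodes y+LAT1, which exports cationic amino acids in exchange for neutral ones and sodium. At 0 h its probe set 1417392_a_at had signals of 247 and 250.4 in codes 12 to 22, 758 and 777 in codes 32 to 37, and 439 and 313 in codes 44 to 54. At 1 h they were 194 and 252, 1048 and 478, and 598 and 511. At 4 h they were 1560.3 and 1424, 1019 and 994, and 1996 and 1475. The 4 h and 0 h groups did not overlap, but the arrays of codes 32 to 37 were the highest at 0 h and the lowest at 4 h, and 1 of them at 1 h was above both of them at 4 h.

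The log2 change of Slc7a7 at 4 h against 0 h was 1.68 ± 0.37 (limma adjusted p = 0.00182). Within the ranges it was 2.51 in codes 12 to 22, 0.38 in codes 32 to 37 and 2.16 in codes 44 to 54. The second probe set (1447181_s_at) gave 1.22 ± 0.37 (limma adjusted p = 0.0159), and 2.15, -0.29 and 1.80 within the ranges. Fitted within codes 32 to 37 alone, with 2 arrays per time, the rise of the representative did not pass (limma adjusted p = 0.573).

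The promoter of Slc7a7 is shown as the other one with TGATGNAA. RefSeq gives 5 windows for this gene, and 1 of them holds 2 sites, TGATGAAA at -141 and TGATGCAA at -1 from its start. The site at -1 lies also in an overlapping window, at -243, and the other 3 windows hold none of the motifs. The stretch on chr14:54417918-54418105 (minus strand), with both sites in capitals, is the following.
Slc7a7: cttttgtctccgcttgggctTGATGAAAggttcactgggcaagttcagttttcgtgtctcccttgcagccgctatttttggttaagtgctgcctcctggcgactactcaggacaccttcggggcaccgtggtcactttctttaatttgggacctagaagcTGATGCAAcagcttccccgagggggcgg

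Slc7a8 encodes LAT2, an exchanger of neutral amino acids. Its signals were 583 to 1192 at 0 h (median 857), 555 to 1593 at 1 h (median 885) and 1203 to 2464 at 4 h (median 1488). The lowest 4 h array was just above the highest 0 h array and below 2 of the 1 h arrays. The log2 change of 4 h against 0 h was 0.87 ± 0.23 (limma adjusted p = 0.00853), and it was 0.80, 1.03 and 0.77 within codes 12 to 22, 32 to 37 and 44 to 54. Fitted within a single range, with 2 arrays per time, it did not pass in any of them (limma adjusted p = 0.103 to 0.15). The window of Slc7a8 held none of the 3 motifs.

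Slc7a5 encodes LAT1, the exchanger of leucine and other large neutral amino acids. Its signals were 193 to 718 at 0 h (median 333), 250.5 to 683 at 1 h (median 369.6) and 277 to 1044 at 4 h (median 631). The groups overlapped widely, with array 18 the highest at 0 h and array 34 the lowest at 4 h. The log2 difference of 4 h against 0 h was 0.79 ± 0.32, with a 95% interval of 0.12 to 1.46, and it did not pass (limma adjusted p = 0.0666). With the range of codes as a block, which called 46.3% of all genes, it passed (limma adjusted p = 0.0403), as it did without array 34 (0.0168), without array 18 (0.0188), after quantile normalization (0.0323) and after centring (0.02).

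Slc1a5 encodes ASCT2, a sodium-dependent exchanger that takes up glutamine. Its signals were 354 to 569 at 0 h, 420.2 to 648 at 1 h and 354 to 701 at 4 h, and the groups overlapped. The log2 difference of 4 h against 0 h was 0.18 ± 0.18, with an interval of -0.20 to 0.56 (limma adjusted p = 0.478). Its second probe set, which exceeded the array median on 5 of 18 arrays, gave -0.89 ± 0.47 (limma adjusted p = 0.153).

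Slc38a2 encodes SNAT2, a sodium-coupled carrier of small neutral amino acids that is known to be induced by amino acid shortage. Its signals were 6557 to 8316 at 0 h, 6853 to 8565 at 1 h and 5764 to 8786 at 4 h. The log2 difference of 4 h against 0 h was -0.02 ± 0.13 and its interval ran from -0.29 to 0.24 (limma adjusted p = 0.909). The 2 other probe sets gave -0.42 ± 0.19 (1429593_at, limma adjusted p = 0.095) and -0.03 ± 0.25 (1429594_at, 0.946). Of the 3 motifs its window held TGACNNNGC, as TGACGCGGC at -27, a motif present in 12.4% of all windows.

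Slc36a1 encodes PAT1, a proton-coupled carrier of small neutral amino acids found in the lysosomal membrane. Its signals at 0 h were 545 and 577 in codes 12 to 22, 453 and 621 in codes 32 to 37, and 397 and 513 in codes 44 to 54. At 1 h they were 606 and 595, 562 and 509, and 421 and 466. At 4 h they were 172 and 128, 410.2 and 384, and 261 and 180.2. Within every range both 4 h arrays were below both 0 h arrays, while array 34 of the 4 h group was above array 44 of the 0 h group.

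The log2 change of Slc36a1 at 4 h against 0 h was -1.07 ± 0.23 (limma adjusted p = 0.00152), 781st from the lowest of 11733 genes. Within codes 12 to 22 it was -1.81, within codes 32 to 37 -0.40 and within codes 44 to 54 -1.0. Fitted within a single range, with 2 arrays per time, it did not pass in codes 32 to 37 (limma adjusted p = 0.357) or in codes 44 to 54 (0.0502).

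The promoter of Slc36a1 is shown because it holds CACGTGAC, the E-box with the flanking AC of the lysosomal gene element, 2 times, at -31 and at -3 from the start. At least 1 CACGTGAC is present in 2.25% of windows and at least 2 in 0.463%. The second site shares the bases TGAC with a match of TGACNNNGC, TGACAGGGC, whose first base is at 1. The stretch on chr11:55204289-55204364 (plus strand), with both E-boxes in capitals, is printed here.
Slc36a1: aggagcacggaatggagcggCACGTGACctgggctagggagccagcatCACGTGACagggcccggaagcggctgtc

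At 1 h none of the 9 transporters was called against 0 h, by limma adjusted p or at an unadjusted p under 0.05. Of all genes 0.648% were called in this comparison, 76 of 11733. The log2 differences lay between 0.03 for Slc36a1 and 0.24 for Slc7a11, and all groups overlapped (0.384% of all genes were higher and 0.264% lower without overlap). Slc7a11 was at 147 and 267 in codes 32 to 37 at 1 h, against 107 and 113 at 0 h, and these arrays included array 36. Without arrays 36 and 37 the Slc7a11 difference was -0.03. With the range of codes as a block, 0 of 9 were called and 1.02% of all genes.

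**Figure D3:**
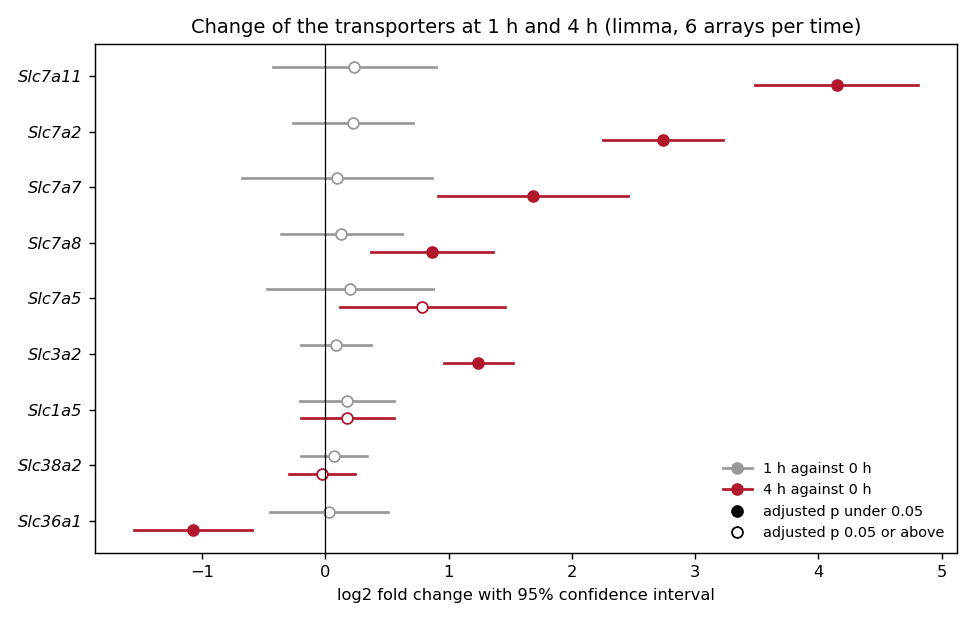
Log2 change of each transporter's representative probe set at 1 h and at 4 h against 0 h (limma, 6 arrays per time), with 95% confidence intervals; filled symbols passed the adjusted threshold of 0.05. All intervals at 1 h include 0, and at 4 h those of Slc1a5 and Slc38a2 include 0.

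Between 4 h and 1 h, 5 transporters were higher and 1 was lower, against 27.9% of all genes called (9.03% higher and 18.9% lower). This comparison shares its 4 h arrays with that of 4 h against 0 h. The log2 changes were 3.91 for Slc7a11, 2.51 for Slc7a2, 1.59 for Slc7a7, 1.16 for Slc3a2 and 0.74 for Slc7a8, with limma adjusted p-values of 2.08e-07, 8.13e-07, 0.00401, 8.7e-06 and 0.0282. For Slc36a1 it was -1.10 (limma adjusted p = 0.00182), and every 4 h array was below every 1 h array. Without overlap 3 transporters were higher (4.49% of all genes) and 1 lower (8.32%). For Slc7a5 it was 0.59 ± 0.32 and did not pass (limma adjusted p = 0.198). The call of Slc7a8 was lost without array 36 (limma adjusted p = 0.0579), 33 (0.0507), 14 (0.0711) or 46 (0.0708), and without arrays 36 and 37 together (0.0804).

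Whether the 4 h change differed between the ranges of codes was tested as an interaction of time and range. None of the 9 transporters passed, and 1.13% of all genes did. The lowest p was that of Slc7a7 (limma F test, unadjusted p = 0.000797, adjusted p = 0.0704), followed by Slc36a1 (unadjusted p = 0.00292, adjusted p = 0.136). For both, the change was smallest in codes 32 to 37. The Slc7a7 difference passed without array 36 (limma adjusted p = 0.0175) or array 33 (0.0176), both of the 1 h group. For the other 7 the adjusted p lay between 0.651 for Slc1a5 and 0.982 for Slc7a5 and Slc7a8. Slc7a11 rose within each range, by 3.76 in codes 12 to 22, 4.19 in codes 32 to 37 and 4.5 in codes 44 to 54, and Slc7a2 by 2.96, 2.99 and 2.26.

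**Figure D4:**
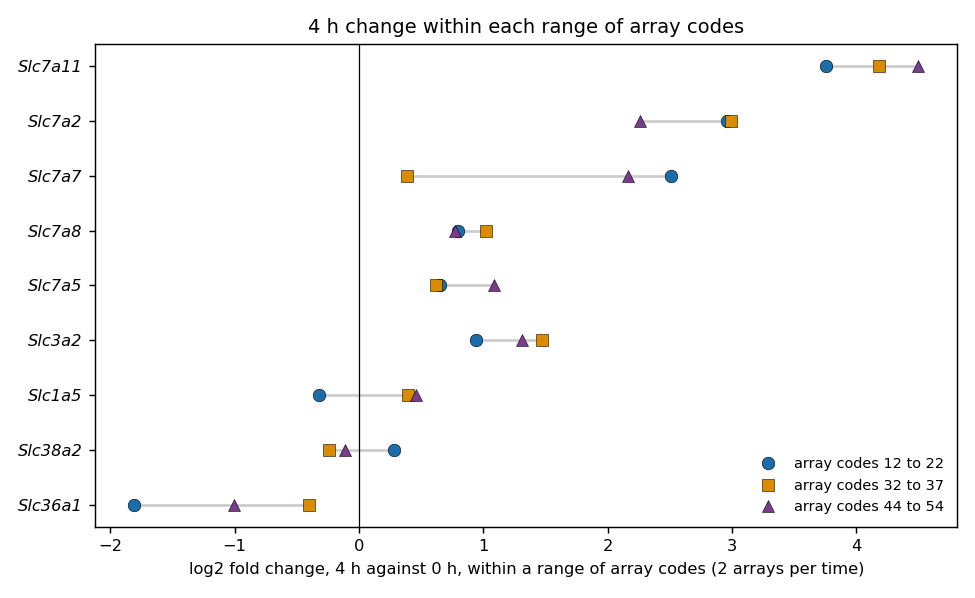
Log2 change of 4 h against 0 h for each transporter within each range of array codes, from 2 arrays per time and range; grey lines join the ranges of a gene. Slc7a7 spans 0.38 to 2.51 and Slc36a1 -1.81 to -0.40, while Slc7a8 spans 0.77 to 1.03.

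The level of a few transporters also differed between ranges in a fit with time and range. Slc7a11 was 2.06-fold higher in codes 32 to 37 than in codes 12 to 22 (log2 1.04 ± 0.20, limma adjusted p = 0.00226), the only one of 9 called, against 20.7% of all genes. Slc7a8 was 1.55-fold higher in codes 44 to 54 than in codes 12 to 22 (log2 0.64 ± 0.17, limma adjusted p = 0.0156), again the only one, against 22.3% of all genes. In codes 44 to 54 against 32 to 37, Slc7a8 was higher by 0.57 ± 0.17 (limma adjusted p = 0.0297) and Slc7a11 lower at -0.69 ± 0.20 (0.025), against 20.8% of all genes. The second Slc7a11 probe set, given with no test, differed by only -0.29 ± 0.35 there. In codes 32 to 37 against 12 to 22 it differed by 1.14 ± 0.35. The ranges differ in stromal, neutrophil and B cell markers as given above, and the part of those cells in these differences was not tested. After centring the arrays on their medians, Slc7a8 no longer passed against codes 12 to 22 (limma adjusted p = 0.0569) or against codes 32 to 37 (0.11). Without array 54, 51 or 44 neither Slc7a8 nor Slc7a11 passed between codes 44 to 54 and 32 to 37 (limma adjusted p = 0.0539 to 0.073), and without array 36, 32 or 46 Slc7a8 did not (0.0561 to 0.0756).

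The 5 genes most like Slc7a11 over the 18 arrays, by Pearson correlation of log2(signal + 16), were Slc2a1, a glucose transporter (0.983), Tma16 (0.981), Dtx2 (0.981), Saa3, an acute phase protein (0.971), and Car13, a carbonic anhydrase (0.968). Those most like Slc36a1 were Rab3il1 (0.944), St6gal1, a sialyltransferase (0.935), Zfyve26 (0.930), Cerk, the ceramide kinase (0.927), and Mtmr10 (0.913). The points share the 3 times and the code ranges. At 4 h against 0 h, Saa3 changed by 6.46 ± 0.38 and Slc2a1 by 2.47 ± 0.25 on the log2 scale, and Cerk by -2.05 ± 0.31 and St6gal1 by -1.93 ± 0.27.

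Other amino acid transporters were counted in the same fit, in which 11.5% of all genes were higher and 23.9% lower at 4 h than at 0 h, with a median of -0.19. Of 35 further transporters 22 were kept, and 3 were higher and 4 lower, with a median log2 change of -0.01. After centring the arrays on their medians, where 18.4% of all genes were higher and 10.8% lower, 4 were higher and 2 lower and the median was 0.25. Slc15a3, a lysosomal carrier of histidine and peptides, averaged 11009 ± 1409 at 4 h and 2283 ± 1196 at 0 h (SD, n = 6 each), a log2 change of 2.40 ± 0.28 (limma adjusted p = 5.06e-06). Slc7a1, the other main arginine carrier, averaged 4607 ± 1461 at 4 h and 1721 ± 625 at 0 h (log2 1.43 ± 0.29, limma adjusted p = 0.00113). Slc38a9, the lysosomal arginine sensor of mTORC1, averaged 314 ± 115 at 4 h and 747 ± 212 at 0 h (log2 -1.23 ± 0.21, limma adjusted p = 2.59e-04). Slc43a2, a uniporter of large neutral amino acids, was also lower (log2 -1.19 ± 0.24, limma adjusted p = 0.00103). The other genes called were Slc16a10, an aromatic amino acid carrier (log2 1.12), Slc38a10 (-0.59) and Slc6a6, the taurine transporter (-0.35). After centring, Slc38a10 (limma adjusted p = 0.0725) and Slc6a6 (0.604) did not pass.

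Genes of glutathione and redox metabolism and of arginine use were counted against the same shares of 11.5% higher and 23.9% lower. Of 14 glutathione, thioredoxin and other redox genes 7 were higher and 2 lower at 4 h, with a median log2 change of 0.62. After centring, where 18.4% of all genes were higher and 10.8% lower, 9 were higher and 0 lower. The largest changes were those of Txnrd1, thioredoxin reductase (2.32 ± 0.21, limma adjusted p = 3.56e-07), Hmox1, heme oxygenase (2.31 ± 0.47, 9.61e-04), Srxn1, sulfiredoxin (2.27 ± 0.34, 6.82e-05), and Gsr, glutathione reductase (1.62 ± 0.17, 1.54e-06). The 2 that fell were Gpx1 and Gpx4, which reduce peroxides with glutathione, at -0.60 and -0.53, and neither was called lower after centring. Of 13 arginine and polyamine genes 4 were higher and 1 lower, with a median of -0.05 (0.20 after centring). The gene that fell was Oaz2, an ornithine decarboxylase antizyme (-0.37), and it was not called after centring. Gch1, which makes the first step of the cofactor of nitric oxide synthase, averaged 5081 ± 1499 at 4 h and 393 ± 134 at 0 h (log2 3.66 ± 0.27, limma adjusted p = 4.75e-08). Arg2, the mitochondrial arginase, changed by 2.82 ± 0.62 (limma adjusted p = 0.00205) and Azin1, an antizyme inhibitor, by 0.91 ± 0.17 (6.42e-04). Ass1, which makes argininosuccinate, is among the 4 called but met the filter on dim values only with its 4 h arrays. Its signals are given with no test, 151 ± 28.4 at 4 h and 55.3 ± 16.1 at 0 h. Nos2, the inducible nitric oxide synthase, did not pass the filter on dim values.

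Of 26 kept genes of the ATF4 response to amino acid shortage 9 were higher and 2 lower at 4 h, with a median of 0.42, against 11.5% and 23.9% of all genes. After centring, where 18.4% of all genes were higher and 10.8% lower, 12 were higher and 2 lower, with a median of 0.67. They were led by the transcription factors Cebpb (1.89 ± 0.26, limma adjusted p = 3.04e-05) and Atf3 (1.59 ± 0.26, 1.73e-04), by the phosphatase subunit Ppp1r15a (1.66 ± 0.25, 6.11e-05) and by Nupr1 (1.42 ± 0.49, 0.0347), which did not pass after quantile normalization (0.0621). Both that fell encode kinases of the translation factor eIF2, Eif2ak3 (-1.12) and Eif2ak4 (-0.76). Ppp1r15a was also the only gene of these lists called at 1 h, at 1.59 ± 0.25 (limma adjusted p = 0.00316). Of 19 aminoacyl tRNA synthetases 6 were higher and 1 lower, with a median of 0.26. These counts moved with the scaling. After centring, with 18.4% of all genes higher and 10.8% lower, 11 were higher and 0 lower (median 0.51). After quantile normalization, with 12.8% of all genes higher and 17.4% lower, 4 were higher and 1 lower (median 0.34). The changes included 0.86 ± 0.15 for Tars, 0.69 ± 0.21 for Aars and 0.63 ± 0.12 for Rars (limma adjusted p = 3.22e-04, 0.0161 and 7.3e-04). Qars was lower at -0.63 ± 0.15 (limma adjusted p = 0.00364), and it did not pass after centring (0.125).

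Of 30 kept genes of mTORC1 and lysosomal amino acid sensing 4 were higher and 9 lower at 4 h, with a median of -0.23, near the shares over all genes of 11.5% and 23.9% and their median of -0.19. The sestrin Sesn1, a leucine-sensing inhibitor of mTORC1, averaged 453 ± 193 at 4 h and 4595 ± 2171 at 0 h (log2 -3.22 ± 0.43, limma adjusted p = 2.35e-05). Deptor, an mTOR inhibitor, changed by -1.30 ± 0.21 (limma adjusted p = 1.59e-04), Sesn3 by -1.29 ± 0.23 (2.97e-04) and Lamtor4, a subunit of the Ragulator scaffold, by -0.87 ± 0.19 (0.00149). The genes that rose were Wdr59 (0.70), Lamtor3 (0.50), Rheb (0.41) and Seh1l (0.37). After quantile normalization Lamtor3 (limma adjusted p = 0.0958) and Rheb (0.127) did not pass. Then 2 of the 30 were higher and 7 lower, against 12.8% and 17.4% of all genes. After centring the arrays, 5 of the 30 were higher and 4 lower, against 18.4% and 10.8%, and the median of the 30 was 0.02. Of 10 enzymes of glutamine, glutamate and branched chain amino acids 0 were higher and 3 lower, with a median of -0.28, where 23.9% of all genes were lower. After centring, where 10.8% of all genes were lower, 2 of these enzymes were lower and their median was -0.03. Glul, glutamine synthetase, averaged 2762 ± 406 at 4 h and 8271 ± 1809.7 at 0 h (log2 -1.56 ± 0.17, limma adjusted p = 2.88e-06), Bckdha, of the branched chain ketoacid dehydrogenase, changed by -0.82 ± 0.15 (4.01e-04) and Glud1, glutamate dehydrogenase, by -0.51 ± 0.13 (0.00652). Glud1 did not pass after centring (limma adjusted p = 0.29).

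**Figure D5:**
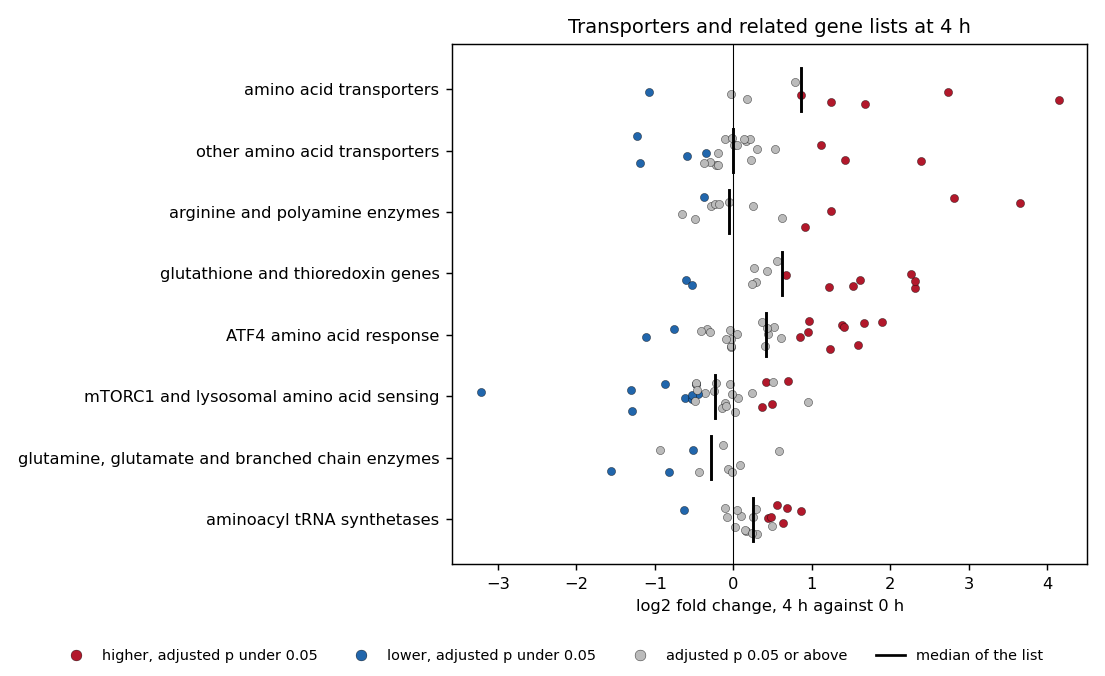
Log2 change of 4 h against 0 h of each kept gene in the lists described above, with red for higher and blue for lower at an adjusted p under 0.05 (limma) and black bars at the median of each list. The 9 transporters have a median of 0.87 and the mTORC1 list one of -0.23, and the vertical scatter within a list carries no value.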

How the data were processed

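The deposited table holds intensities on a linear scale, 1 signal per probe set and array for 18 samples, and per the submitters' processing notes the authors used MAS5 and GCOS, Affymetrix software, with no version; no source used here gives further settings. The trimmed mean, over the 2nd to 98th percentile, was 500 on every array. Probe sets were named from the platform annotation: of 45101, 64 are controls, 34945 have a single symbol, of which 34741 matched the RefSeq gene table, 932 several and 9160 none. Values were log2(signal + 16), which understates changes of dim genes. R 4.3.3 with limma 3.58.1 (lmFit, eBayes) fitted the 3 time means on all 18 arrays together, and time with range, or their interaction, for the ranges. The script was tested on simulated data, and figures were drawn with Python 3.11.15. The precision is limited by the number of arrays. The transporters and gene lists were chosen with earlier results of these data known. Named are all 9 transporters, from each list up to 4 genes with the largest change past the threshold at 4 h against 0 h (or the 2 brightest where none passed), and the 5 genes most like the transporter with the largest rise and the one with the largest fall. Ctss, Cd22, Ighm, Gpx1, Gpx4, Oaz2, Slc16a10, Slc38a10, Slc6a6, Eif2ak3, Eif2ak4, Wdr59, Lamtor3, Rheb and Seh1l fall outside this rule and were named after their values were seen. Alternatives were the pseudocount, the filter, 2 scalings, the range as a block, single ranges, the choice of probe set, eBayes with a trend and each array left out, and, added after seeing the data, arrays 36 and 37 left out together.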

Additional observations from a re-analysis of the deposited data

Results flagged for a closer look

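Slc3a2 on array 33 (1 h) stood apart from the other arrays of its time, with a signal of 3597.5 against 4960.5 on the nearest. On the log2(signal + 16) scale the gap was 0.77 of the whole range of the 6 arrays at 1 h. Of 27 groups examined, 9 transporters at 3 times, this was the only one, and chance alone marks about 1 in 20.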

How the results depend on the processing

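Over 1836 values of single transporters under the alternatives, 1784 were counted as the same, 34 no longer passed, 18 newly passed and 0 reversed. A value that did not pass could change its sign and still count as the same. For Slc1a5 at 4 h against 0 h, at 0.18 in the main fit, the lowest alternative was -0.89. The 6 transporters changed at 4 h against 0 h became 2 within codes 32 to 37, as did the 6 of 4 h against 1 h, where each group holds 2 arrays. Calls over all probe sets fell there too, from 8532 to 1184 for 4 h against 0 h and from 6286 to 490 for 4 h against 1 h. With each array left out in turn, the count of transporters called was 6 to 7 for 4 h against 0 h, 0 to 0 for 1 h against 0 h and 5 to 6 for 4 h against 1 h. Across ranges it was 1 to 1 for codes 44 to 54 against 12 to 22, 1 to 2 for 32 to 37 against 12 to 22, 0 to 2 for 44 to 54 against 32 to 37 and 0 to 1 for the difference between ranges. Slc7a7 made up the second call in codes 32 to 37 against 12 to 22 without array 37, 34, 22 or 16 (adjusted p 0.0263 to 0.0466).

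For codes 32 to 37 against 12 to 22, a trend in eBayes, the probe set with the smallest p, and leaving out arrays 36 and 37 each gave 2 against 1; the second was Slc7a7 (0.043 and 0.0226) or, by the probe set with the smallest p, Slc38a2 (-0.75, 0.0122). For codes 44 to 54 against 32 to 37 the count of 2 became 0 with no filter on dim probe sets, 1 after centring and 1 without arrays 36 and 37. For codes 44 to 54 against 12 to 22 it became 0 after centring. The difference between ranges gave 1, Slc7a7, with a pseudocount of 64 (0.0405) and with a trend (0.0214). The causes were not tested. As a block, the range of codes gave 6 higher and 1 lower at 4 h against 0 h, where 14.4% of all genes were higher and 31.9% lower. At 1 h it called 339 probe sets against 194. No paired analysis was possible because the labels give no replicate numbers shared between times.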
